A study of Homo sapiens with 6 samples.

Results

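The 80 genes described here encode the enzymes that oxidise and conjugate drugs, pollutants and hormones. They comprise 41 cytochrome P450 (CYP) genes, 14 UDP-glucuronosyltransferase (UGT) genes, 15 glutathione S-transferase genes (GST, with the microsomal MGST genes) and 10 sulfotransferase (SULT) genes. They were chosen by symbol among the protein-coding genes of a count table of 30230 genes, and CYP51A1, an enzyme of cholesterol synthesis, was left out. The table came from RNA sequencing of A549, a human lung adenocarcinoma cell line, and addresses which transcripts change when FSCN1, whose product fascin bundles actin filaments, is silenced. The control group (NC) and the group given an siRNA against FSCN1 (siFSCN1) had 3 libraries each. According to the study's text the NC cells received a scrambled siRNA, whereas the treatment label of these samples names a control plasmid, and the labels give no other treatment for either group. All libraries come from 1 cell line, and the sequenced siFSCN1 cells received 1 siRNA, so an effect of its sequence and an effect of losing FSCN1 cannot be told apart. The study calls the libraries biological replicates while the labels name no separate cultures, so p-values measure the spread between these libraries.

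CYP enzymes are membrane-bound haem proteins that insert oxygen into lipophilic compounds with electrons from NADPH, taken from POR at the endoplasmic reticulum or from ferredoxin in mitochondria. UGTs, GSTs and SULTs then attach glucuronic acid, glutathione or sulfate, which makes the product more soluble and ready for export by pumps of the ABC family. Liver and gut hold most of these enzymes, but airway epithelium has its own set. Many of the genes are switched by receptors that sense their substrates, such as AHR and the vitamin D receptor. The transcription factor NFE2L2 (NRF2) also switches some of them.

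The libraries held between 27967301 and 36560919 counts. FSCN1 was at 44.98, 47.24 and 45.99 FPKM (fragments scaled to gene length and to the fragments mapped in the library) in NC and at 4.46, 2.82 and 3.19 FPKM in siFSCN1, with a log2 fold change of -3.89 ± 0.094 (standard error, as for every log2 fold change below). Of the markers checked, all 5 of simple epithelium were at 1 FPKM or more in a group, and the keratins KRT8 and KRT18 led their summed FPKM, which was 2607 to 3001 in NC and 1526 to 1854 in siFSCN1. The list was divided, as the keratins KRT8, KRT18 and KRT19 fell while CDH1, which encodes E-cadherin, rose by a log2 fold change of 1.35 ± 0.041 and EPCAM by 0.29 ± 0.11. The 4 alveolar type 2 markers with a row were under 1 FPKM in every library, including the defining surfactant gene SFTPC (0.06 to 0.1 FPKM), so the line lacked the defining transcripts of that cell type. Of the 3 leukocyte genes, PTPRC and CD3E were at 0.02 FPKM or less, whereas CD14 had a mean of 2.91 FPKM in NC and 4.29 in siFSCN1 and rose by 0.40 ± 0.11, and no endothelial or fibroblast marker reached 1 FPKM. Hepatocytes carry many of the enzymes described here, and the summed FPKM of 5 hepatocyte markers was 0.29 to 0.59 in NC and 2.83 to 3.11 in siFSCN1. SERPINA1 was the largest part, with a mean of 0.277 FPKM in NC and 2.5 in siFSCN1, and rose by 2.97 ± 0.17. ALB (at most 0.23 FPKM) and TTR also rose, but had enough counts for a test in siFSCN1 only. APOA1 and APOB were too scarce to test. The part of these levels in the results below was not tested, and in bulk RNA fewer cells with a transcript and less of it per cell cannot be told apart.

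After silencing, the set moved in both directions. Of the 80 members, 46 passed the filter on low counts and 34 did not. Of those 46, 23 rose and 11 fell at an adjusted p under 0.05 in edgeR's quasi-likelihood test, with p adjusted over all 17076 genes tested, and 12 did not pass. That is 73.9% of the members against 68.3% of all genes tested. By direction, 50% of the members rose, against 35.1% of all genes, and 23.9% fell, against 33.2%. Members whose libraries did not overlap between groups made up 76.1%, against 71.2% of all genes. A member was called changed when it also differed at least 2-fold, which held for 14 members (30.4%, against 16.5% of all genes). Called higher were CYP1B1, CYP24A1, CYP4F3, CYP4V2, CYP2D6, GSTA1, GSTA2, GSTM2, UGT2B10 and UGT2B11, which makes 10 members or 21.7%, against 11.7% of all genes. Called lower were CYP1A1, GSTO1, SULT2B1 and UGT1A10, which makes 4 members or 8.7%, against 4.85%. The median log2 fold change was 0.40 over the members tested and 0.031 over all genes tested. The filter let 4 members in through 1 group only, namely CYP1A1 through NC and UGT2B10, UGT2B11 and GSTM2 through siFSCN1. Those 4 had to differ. CYP2D6 and CYP26A1 were over the filter in 3 siFSCN1 libraries but 1 NC library, so their entry also depended on siFSCN1. These counts are thus a description of what could be tested.

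Split by level, the shares differed. Among the 26 members at a mean of 1 FPKM or more in a group, 5 were called higher (19.2%, against 5.86% of all such genes) and 2 lower (7.69%, against 4.85%). Of those called higher, GSTA1 (mean 0.297 FPKM in NC, 1.55 in siFSCN1) and GSTA2 (0.69, 2.27) reached that level through siFSCN1 only. Entry at this level thus depended in part on the change itself, and these shares are a description. Among the 20 tested members under that level, 5 were called higher (25%, against 24.3%) and 2 lower (10%, against 4.86%), so their share called higher was near the background. Scaling by library totals, with no correction for composition, gave 11 members higher and 2 lower, and moved the median of all genes from 0.031 to 0.22, and no member that passed the test changed direction. The deposited FPKM values carry no such correction either, so ratios of FPKM lie above the fitted fold changes given with them.

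**Figure D1:**
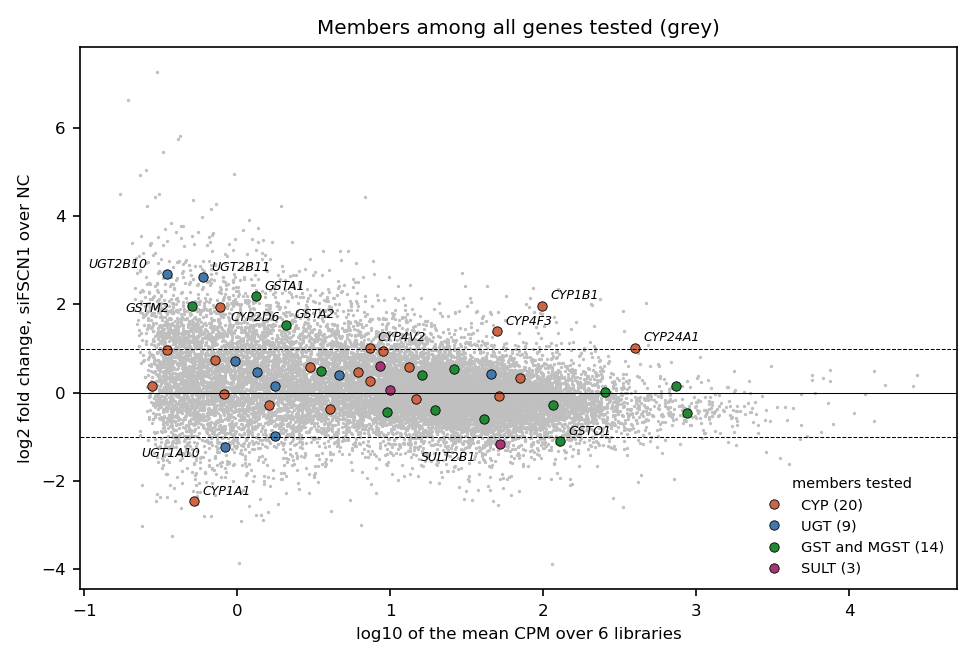
Log2 fold change of siFSCN1 over NC (vertical axis) against the log10 of the mean CPM (counts scaled to library size after TMM) over 6 libraries (horizontal axis) for 17076 genes tested in grey and the 46 members tested in colour by family. Dashed lines mark a 2-fold change. The 14 named members are those called changed. CYP1B1, CYP4F3 and CYP24A1 lie above the upper dashed line among more abundant genes, CYP24A1 only just (1.02). UGT2B10, UGT2B11, GSTM2 and CYP2D6 lie among many scarce genes with changes of like size.

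Per gene length, a few members made up most of the set. In NC the highest levels were those of GSTP1 at 454 FPKM ± 16.7 (SD, n = 3), GSTO1 at 82 ± 2.43, MGST1 at 75.5 ± 2.92 and CYP24A1 at 52.1 ± 2.07. The lowest GSTO1 library (80.26 FPKM) lay just above the highest MGST1 library (78.02), and no neighbours in that order overlapped. In siFSCN1 the order was GSTP1 at 367 FPKM ± 32.7, CYP24A1 at 119 ± 5.31, MGST1 at 93.1 ± 2.16 and GSTO1 at 43.4 ± 1.92, with no overlap between neighbours. The members' share of all counts was 0.275% to 0.29% in NC and 0.335% to 0.336% in siFSCN1.

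The families went separate ways in their sums. The summed FPKM of the CYP genes was 96.4 to 101 in NC and 194 to 215 in siFSCN1, and that of the UGT genes was 15.3 to 15.8 and 22.4 to 23.5. The GST and MGST genes summed to 660 to 702 FPKM in NC and 541 to 623 in siFSCN1, and the SULT genes to 20.7 to 24 and 11.8 to 14.6. None of these ranges overlapped between groups. Each sum was carried by a single gene or a few, CYP24A1 for CYP, UGT1A8 for UGT, GSTP1 for GST and SULT2B1 for SULT, and no test was made on the sums.

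**Figure D2:**
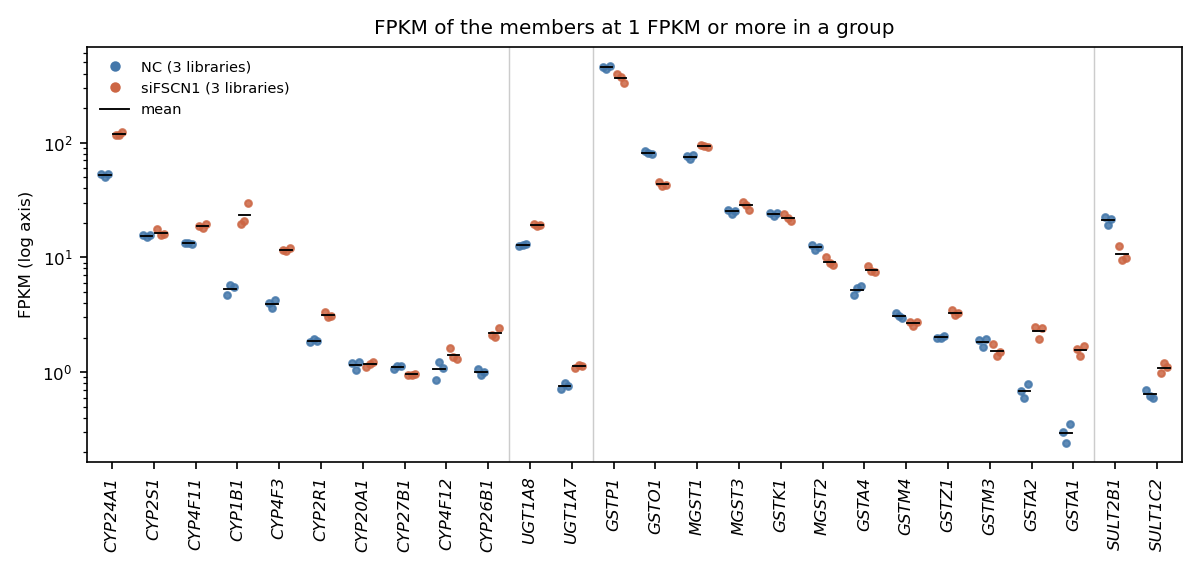
FPKM on a log axis of the 26 members at a mean of 1 FPKM or more in NC or siFSCN1, by family and, within it, by their NC level. Each point is a library and each black bar the mean of 3. CYP24A1 rises above 100 FPKM in all 3 siFSCN1 libraries, and GSTO1 and SULT2B1 are the abundant genes with a clear drop.

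Leaving aside CYP2R1, described with the vitamin D enzymes, the CYP genes of families 1, 2 and 3, which act on foreign compounds and on arachidonate, numbered 20, of which 7 were tested. CYP1A1 and CYP1B1, the enzymes that oxidise polycyclic aromatic hydrocarbons and estrogens and the textbook targets of the aryl hydrocarbon receptor AHR, changed in opposite directions. CYP1B1 (ENSG00000138061.12, GRCh38 chromosome 2, 38066973 to 38109902, minus strand) was at 4.69, 5.74 and 5.48 FPKM in NC and at 19.39, 20.56 and 29.9 in siFSCN1. The groups were far apart, and siFSCN1 replicate 3 stood above the other siFSCN1 libraries. CYP1B1 rose 3.92-fold, with a log2 fold change of 1.97 ± 0.12 and an adjusted p of 5.9e-11. Exons of RMDN2 and of CYP1B1-AS1 on the opposite strand overlap its 6024 exonic bases, by 774 bases when the overlaps of both genes are added. Bases under both are counted for each. Whether the counting used strand is not given in the sources used here. CYP1B1-AS1 itself had 16 to 23 counts in NC and 16 to 30 in siFSCN1.

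CYP1A1 (ENSG00000140465.14, chromosome 15, 74719542 to 74725536, minus strand) was scarce throughout. It had 23, 32 and 23 counts in NC and 2, 4 and 10 in siFSCN1, and the lowest NC library held more than the highest siFSCN1 library. CYP1A1 fell by 2.45 ± 0.46 on the log2 scale (adjusted p = 1.4e-04), and without siFSCN1 replicate 3 the value was -3.26. At a mean of 0.213 FPKM in NC against 5.3 for CYP1B1, CYP1A1 was the lesser of the pair in both groups.

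The start region of CYP1A1 is shown because it holds the core sequence to which AHR and its partner ARNT bind, GCGTG, which is in capitals. The stretch runs from 100 bases before to 50 bases after the start (RefSeq, GRCh38.p14, chr15:74725479-74725628, minus strand, 5′ to 3′).
CYP1A1: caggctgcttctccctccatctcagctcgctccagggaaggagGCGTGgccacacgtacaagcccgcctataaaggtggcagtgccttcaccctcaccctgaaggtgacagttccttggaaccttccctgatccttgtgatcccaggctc
This stretch of 150 bases held the core 1 time, as did the full window of 300 bases of CYP1A1. The core occurred in 36.5% of 35116 RefSeq windows of 300 bases.

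The partners of this pathway were measured in the same libraries. AHR was at 2.07, 2.07 and 2.5 FPKM in NC and at 4.45, 4.58 and 4.08 in siFSCN1, and rose by a log2 fold change of 0.81 ± 0.067 (adjusted p = 4.8e-09). ARNT, without which AHR does not bind DNA, was at 2.7, 2.63 and 2.72 FPKM in NC and at 1.44, 1.43 and 1.35 in siFSCN1. ARNT was called lower, at -1.10 ± 0.077 (adjusted p = 5.0e-10), though it was short of 2-fold with upper quartile (-0.98) or library-total scaling (-0.91). TIPARP, a further AHR target, named after its values were seen, had a mean of 5.1 FPKM in NC and 2.99 in siFSCN1 and fell by 0.93 ± 0.079 on the log2 scale, to -1.04 without siFSCN1 replicate 3. Thus of these genes AHR and CYP1B1 were higher, and ARNT, CYP1A1 and TIPARP lower. None overlapped between groups, which held for 71.2% of all genes tested, and CYP1A1 entered the test through NC only. AHRR, the AHR repressor, had 5, 5 and 10 counts in NC and 1, 6 and 7 in siFSCN1. It overlapped between groups, was too scarce to test and is named after its values were seen.

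**Figure D3:**
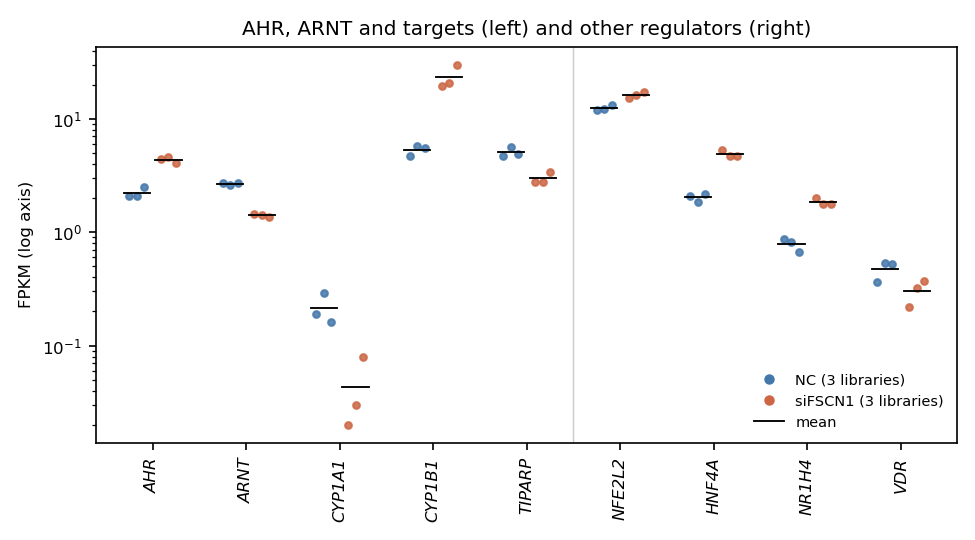
FPKM on a log axis of AHR, its partner ARNT and their targets CYP1A1, CYP1B1 and TIPARP (left of the grey line) and of other regulators of these enzymes (right). Each point is a library and each black bar the mean of 3. AHR and CYP1B1 are higher and ARNT, CYP1A1 and TIPARP lower in siFSCN1, while HNF4A and NR1H4 are higher.

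CYP2D6, the main oxidase of many antidepressants and opioids in liver, had 9, 12 and 7 counts in NC and 56, 39 and 30 in siFSCN1. It was called higher at a log2 fold change of 1.95 ± 0.36 (adjusted p = 1.0e-04), from 0.107 to 0.467 FPKM. As 1 NC library was over the filter on low counts, against 3 of siFSCN1, its entry into the test depended on siFSCN1. Of the 75-base stretches of the longest coding transcript of CYP2D6 (ENSG00000100197.23, chromosome 22, 42126499 to 42130865), 28.1% are also found in the neighbouring genes CYP2D7 and CYP2D8P. Part of its reads thus cannot be placed with certainty. CYP2D7, which is outside the set, had 3, 12 and 15 counts in NC and 33, 33 and 41 in siFSCN1.

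CYP2S1, an epithelial CYP of skin and airway, was the most abundant of these families in NC, at 15.4 FPKM ± 0.396 (SD, n = 3) against 16.5 ± 1.15 in siFSCN1. Its groups overlapped in CPM, and its log2 fold change of -0.075 ± 0.053 did not pass (adjusted p = 0.222), though it did without siFSCN1 replicate 1 (-0.14, adjusted p = 0.0279). CYP2U1 (0.59 ± 0.16, adjusted p = 0.00314) and CYP3A5 (0.46 ± 0.14, adjusted p = 0.0082), both under 1 FPKM, rose, and are named after their values were seen. CYP3A5 did not pass without NC replicate 1, at 0.29. CYP2E1, the ethanol-oxidising CYP, had 4 to 10 counts in NC and 5 to 16 in siFSCN1, and did not pass (adjusted p = 0.83). The other 13 of the 20, among them CYP3A4, had at most 10 counts in any library. Of these CYP2J2, which makes epoxides of arachidonate, had 6, 10 and 4 counts in NC and 3, 1 and 1 in siFSCN1. It was called lower when the filter on low counts was dropped (-2.14, adjusted p = 0.0366) and did not pass in DESeq2 (adjusted p = 0.07). The fit without the filter gave adjusted p-values of another order for abundant genes too (7.2e-311 for CYP1B1, against 5.9e-11), so that call is weak. CYP2J2 is named after its values were seen.

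The vitamin D and retinoid enzymes numbered 6, all tested, of which 3 rose and 1 fell. CYP24A1, the mitochondrial hydroxylase that inactivates vitamin D, was the most abundant CYP. Its levels were 52.88, 49.8 and 53.73 FPKM in NC and 115.68, 115.62 and 124.85 in siFSCN1. The libraries of each group were close together and the groups well apart. CYP24A1 (ENSG00000019186.10, chromosome 20, 54153446 to 54173986, minus strand) rose 2.03-fold, at a log2 fold change of 1.02 ± 0.042 (adjusted p = 3.6e-13). It sits at the 2-fold limit and was under it without NC replicate 2 (0.99) or without siFSCN1 replicate 3 (0.97), with its adjusted p under 0.05 in both, and DESeq2 gave 0.992.

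The rest of the vitamin D pathway did not share that size of change. CYP2R1, which makes the circulating form of vitamin D, was at 1.82, 1.95 and 1.85 FPKM in NC and at 3.37, 3.03 and 3.06 in siFSCN1, and rose by 0.58 ± 0.091. CYP27B1, which makes the active hormone, was at 1.06, 1.12 and 1.12 FPKM in NC and at 0.95, 0.94 and 0.97 in siFSCN1, and fell by 0.37 ± 0.12 on the log2 scale (adjusted p = 0.0118). That fall did not pass with upper quartile scaling (-0.25, adjusted p = 0.0739), with library totals (-0.19, adjusted p = 0.193) or in limma on log2 FPKM (adjusted p = 0.0742 and 0.0528 at the pseudocounts of 0.1 and 1). VDR, the receptor that switches CYP24A1, was at a mean of 0.473 FPKM in NC and 0.303 in siFSCN1 and fell by 0.79 ± 0.20 on the log2 scale, and is named after its values were seen. Thus CYP24A1 and CYP2R1 were higher and VDR lower, and the direction of CYP27B1 was the same but its pass rested on the scaling.

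CYP26B1, which breaks down retinoic acid, was at 1.06, 0.95 and 1 FPKM in NC and at 2.12, 2.02 and 2.41 in siFSCN1. It rose by 0.95 ± 0.11 (adjusted p = 5.9e-07), just short of 2-fold, and passed that limit without NC replicate 1, at 1.001. Its relative CYP26A1, with 1, 10 and 10 counts in NC and 12, 15 and 20 in siFSCN1, did not pass in the full comparison (0.97 ± 0.51, adjusted p = 0.0997). Without NC replicate 2 its value was 1.41 and it was called higher. CYP27C1, a retinoid desaturase, was at -0.026 ± 0.32.

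The CYP4 genes, which hydroxylate the ends of fatty acids and of leukotrienes, numbered 7, of which 4 were tested and 3 rose. CYP4F3, the leukotriene B4 hydroxylase, was at 3.98, 3.6 and 4.23 FPKM in NC and at 11.57, 11.25 and 12.09 in siFSCN1. All siFSCN1 libraries lay above all NC libraries. CYP4F3 (ENSG00000186529.16, chromosome 19, 15640897 to 15662825, plus strand) rose 2.63-fold, at 1.39 ± 0.059 (adjusted p = 4.5e-13). Its neighbour CYP4F11, which also acts on vitamin K, was the more abundant in both groups, at 13.37, 13.3 and 13.16 FPKM in NC and 18.93, 18.1 and 19.54 in siFSCN1. CYP4F11 rose less, by 0.34 ± 0.047 (adjusted p = 3.6e-06). CYP4F12, also in this cluster, was at 0.86 to 1.22 FPKM in NC and 1.29 to 1.61 in siFSCN1 and did not pass (0.26 ± 0.13, adjusted p = 0.0912), though it did without NC replicate 2 (0.37, adjusted p = 0.0273).

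CYP4V2, a fatty acid hydroxylase of the retina, was at 0.36, 0.35 and 0.47 FPKM in NC and at 0.87, 0.99 and 0.84 in siFSCN1. It was called higher at 1.02 ± 0.13 (adjusted p = 1.4e-06). The call was lost to the 2-fold limit, at 0.97, 0.95 and 0.93, without NC replicate 1, NC replicate 2 or siFSCN1 replicate 2, and at 0.997 in DESeq2. The other CYP4 genes, CYP4F2, CYP4F22 and CYP4X1, had at most 13 counts in any library.

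Few CYP genes of sterol and steroid metabolism were measured. None of the steroid hormone enzymes CYP11A1, CYP17A1 and CYP19A1 had more than 7 counts in any library. Of the 4 genes of sterol and bile acid metabolism, CYP7B1 (0.73 ± 0.35, adjusted p = 0.0732) and CYP39A1 (-0.28 ± 0.25, adjusted p = 0.321) were tested and did not pass. Without NC replicate 3, CYP7B1 was called higher, at 1.23. CYP20A1, an orphan enzyme, was at 1.05 to 1.23 FPKM in NC and 1.11 to 1.23 in siFSCN1 and did not pass (-0.15 ± 0.089, adjusted p = 0.145), though it did without siFSCN1 replicate 3 (-0.20, adjusted p = 0.0475).

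**Figure D4:**
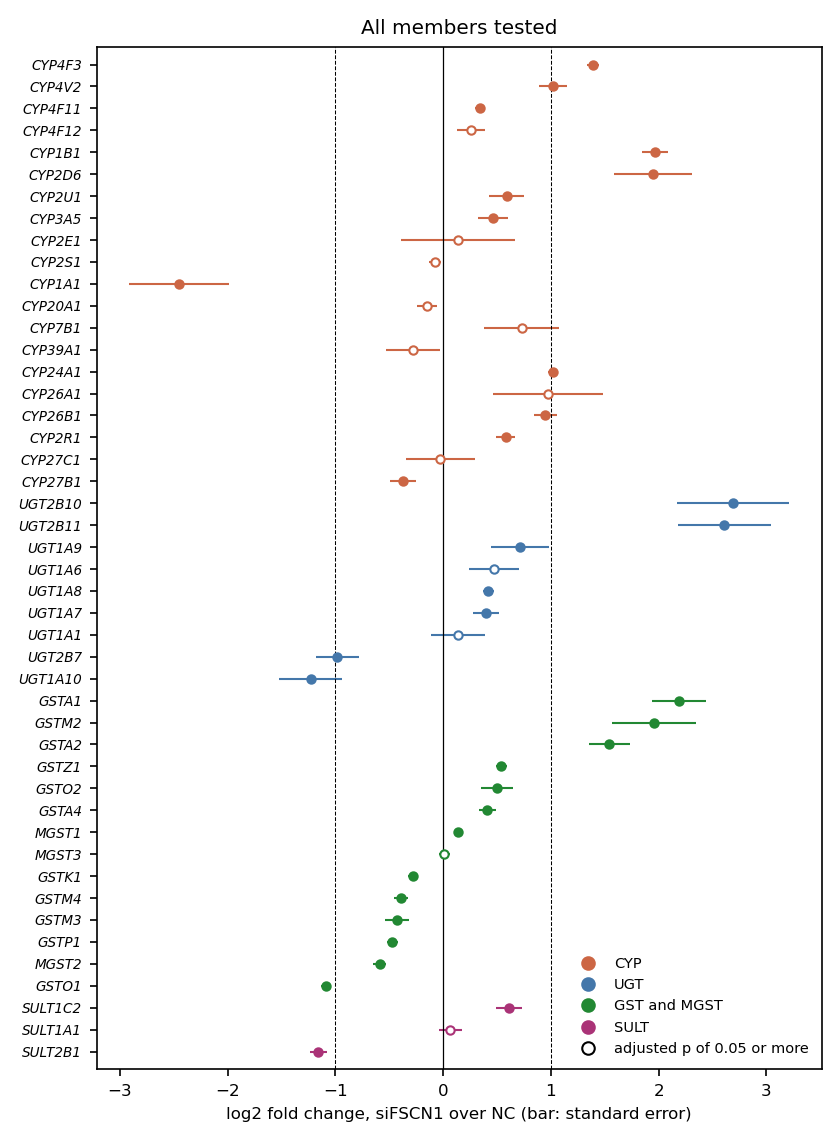
Log2 fold change of siFSCN1 over NC for the 46 members tested, with the standard error as a bar, by family and role. Open points did not pass an adjusted p of 0.05, and dashed lines mark a 2-fold change. The CYP4 genes lie to the right of 0, and the GST genes run from GSTA1 at 2.19 to GSTO1 at -1.09.

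The UGT2 genes form a cluster on chromosome 4 and conjugate steroids, bile acids and opioids. Of 7 members, 3 were tested, of which 2 were called higher. Of all genes tested under a mean of 1 FPKM in both groups, 24.3% were called higher. UGT2B10 and UGT2B11 entered the test through siFSCN1 only, so they had to differ. UGT2B10 (ENSG00000109181.12, 68815994 to 68832023, plus strand) had 2, 5 and 1 counts in NC and 21, 21 and 19 in siFSCN1. UGT2B11 (ENSG00000213759.10, 69199951 to 69214748, minus strand) had 3, 2 and 10 counts in NC and 42, 24 and 39 in siFSCN1. Both were near 0 in NC and clear of it in every siFSCN1 library, without overlap. UGT2B10 rose by 2.69 ± 0.52 (adjusted p = 1.7e-04) and UGT2B11 by 2.61 ± 0.43 (adjusted p = 3.4e-05). Without NC replicate 2 the value of UGT2B10 was 3.56, and without NC replicate 3 that of UGT2B11 was 3.46.

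UGT2B7, the morphine-conjugating enzyme and the most abundant UGT2 gene in NC, went the other way and is named after its values were seen. It had 69, 66 and 74 counts in NC and 46, 31 and 43 in siFSCN1, and fell by 0.98 ± 0.20 on the log2 scale (adjusted p = 3.2e-04), and passed the 2-fold limit without NC replicate 3, siFSCN1 replicate 1 or siFSCN1 replicate 3, at -1.10 at most. Of the 4 UGT2 genes too scarce to test, UGT2A3 had 3, 1 and 1 counts in NC and 9, 12 and 14 in siFSCN1. UGT2B15 had 8, 3 and 3 counts in NC and 16, 17 and 9 in siFSCN1, and UGT2B28 had 0, 0 and 2 against 6, 6 and 4. These 3 had more counts in each siFSCN1 library than in any NC library, but in CPM UGT2B15 overlapped, with NC replicate 1 at 0.277 and siFSCN1 replicate 3 at 0.265. Dropping the filter on low counts called all 3 higher, at an adjusted p of 0.00191, 0.0343 and 0.0469 in turn. That fit gave adjusted p-values of another order for abundant genes too, such as 7.2e-311 for CYP1B1 against 5.9e-11 with the filter. Its calls on genes this scarce are therefore weak. DESeq2, with its own filter, called UGT2A3 higher (2.59, adjusted p = 0.0158), whereas UGT2B15 and UGT2B28 did not pass there (adjusted p = 0.111 and 0.104). UGT2B4 had 1 to 4 counts in NC and 1 to 2 in siFSCN1.

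The promoters of UGT2B10, UGT2B11 and UGT2B7 are shown to let their likeness be seen beside these opposite changes. Whether the sequence bears on the changes was not tested. Each runs from 250 bases before to 50 bases after the start (RefSeq, GRCh38.p14, 5′ to 3′), at chr4:68815744-68816043 on the plus strand, chr4:69214699-69214998 on the minus strand and chr4:69096224-69096523 on the plus strand. Capitals mark the core of the antioxidant response element, TGACNNNGC, the sequence that NFE2L2 binds, here read on the other strand.
UGT2B10: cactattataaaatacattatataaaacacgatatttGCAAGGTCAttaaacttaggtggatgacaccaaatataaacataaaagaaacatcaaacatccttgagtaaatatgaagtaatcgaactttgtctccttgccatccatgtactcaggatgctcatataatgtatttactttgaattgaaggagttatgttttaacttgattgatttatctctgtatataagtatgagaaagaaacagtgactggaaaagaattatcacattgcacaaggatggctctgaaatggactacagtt
UGT2B11: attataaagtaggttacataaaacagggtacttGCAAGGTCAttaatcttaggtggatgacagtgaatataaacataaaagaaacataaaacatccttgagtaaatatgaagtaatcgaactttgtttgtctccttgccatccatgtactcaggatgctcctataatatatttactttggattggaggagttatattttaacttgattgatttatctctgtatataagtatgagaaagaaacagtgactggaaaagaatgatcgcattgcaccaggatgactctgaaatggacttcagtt
UGT2B7: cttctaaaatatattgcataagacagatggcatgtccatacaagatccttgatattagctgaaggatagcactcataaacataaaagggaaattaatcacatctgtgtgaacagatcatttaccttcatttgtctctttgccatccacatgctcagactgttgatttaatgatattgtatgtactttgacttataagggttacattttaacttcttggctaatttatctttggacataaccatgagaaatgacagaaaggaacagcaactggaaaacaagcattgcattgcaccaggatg
UGT2B10 and UGT2B11 share 91.3% of these bases after alignment, and each shares 70% with UGT2B7. Each window follows its own gene's start, and that of UGT2B7 stops short of the last bases of the other windows. Bases left without a partner count as unlike, which lowers the 70%. The antioxidant core is in UGT2B10 and UGT2B11 and not in this window of UGT2B7. The longest coding transcripts are alike too. Of their 75-base stretches, 11.9% for UGT2B10 and 18.3% for UGT2B11 are found in other genes of the cluster, against 2.26% for UGT2B7.

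**Figure D5:**
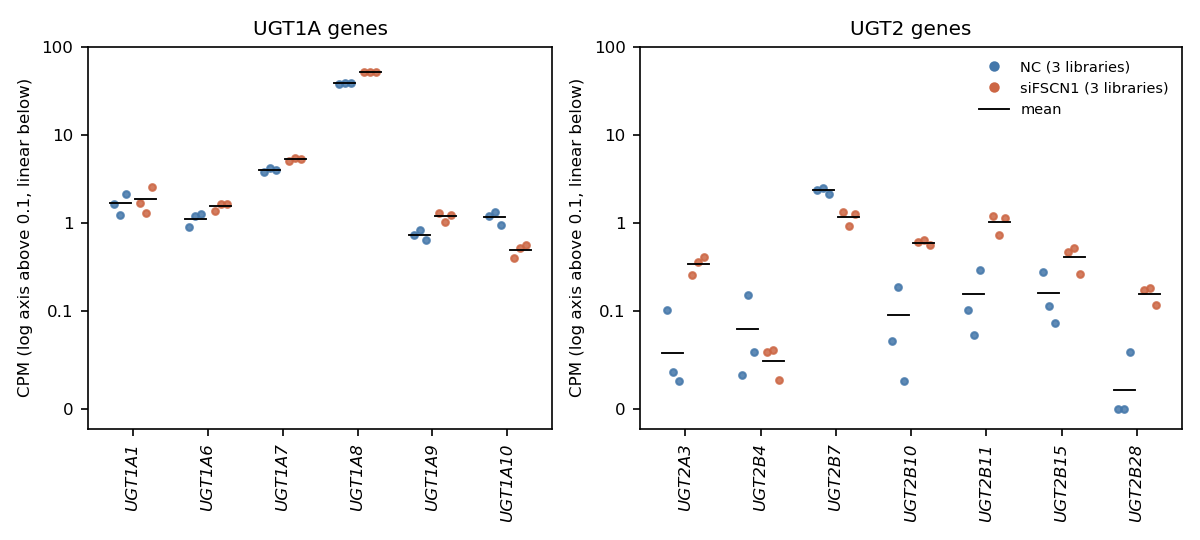
CPM of the UGT1A genes tested (left) and of the 7 UGT2 genes (right), on an axis that is logarithmic above 0.1 and linear below. Each point is a library and each black bar the mean of 3. UGT2B10 and UGT2B11 are higher and UGT2B7 and UGT1A10 lower in every siFSCN1 library, and UGT1A8 is far above the other UGT genes.

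The UGT1A genes on chromosome 2, which conjugate bilirubin, phenols and estrogens, share their last exons, so that reads there cannot be given to one of them. Between 40.3% and 70.6% of the exonic bases of UGT1A7, UGT1A8 and UGT1A10 lie in other UGT1A genes on the same strand, and the split between them as deposited is uncertain. Summed over the locus, the counts made up 46.8 to 48.2 CPM in NC and 61.8 to 62.8 in siFSCN1. The sum was higher in every siFSCN1 library. UGT1A8, an enzyme of gut epithelium, took 81.2% to 84.1% of these counts in all libraries. It was at 12.59, 12.81 and 13.03 FPKM in NC and at 19.57, 18.95 and 19.02 in siFSCN1, and rose by 0.42 ± 0.048 (adjusted p = 4.2e-07).

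UGT1A7, which conjugates benzo(a)pyrene products, was at 0.71, 0.8 and 0.76 FPKM in NC and at 1.09, 1.16 and 1.12 in siFSCN1, and rose by 0.40 ± 0.12 (adjusted p = 0.00621), but did not pass in DESeq2 (adjusted p = 0.0552). UGT1A10 was called lower, with 35, 35 and 33 counts in NC and 14, 17 and 19 in siFSCN1 (-1.23 ± 0.29, adjusted p = 0.0012). In the deposited split, UGT1A10 thus moved against the sum of its locus. As 70.6% of its exonic bases lie in other UGT1A genes, the fall depends on how shared reads were allotted, which was not tested. UGT1A9 rose by 0.71 ± 0.27 (adjusted p = 0.0252), but did not pass in DESeq2 (adjusted p = 0.121) or without NC replicate 3, siFSCN1 replicate 1 or siFSCN1 replicate 3, and UGT1A1 and UGT1A6 did not pass (adjusted p = 0.644 and 0.0737). These 3 are named after their values were seen.

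Of the 15 GST and MGST genes 14 were tested, of which 7 rose and 6 fell. The alpha class, which reduces lipid peroxides and binds bile pigments and steroids, was higher in all 3 of its members. GSTA1 (ENSG00000243955.6, chromosome 6, 52791371 to 52803860, minus strand) was at 0.3, 0.24 and 0.35 FPKM in NC and at 1.58, 1.38 and 1.7 in siFSCN1. Its groups did not overlap, and GSTA1 rose 4.56-fold, at 2.19 ± 0.25 (adjusted p = 3.0e-07). GSTA2 (ENSG00000244067.3, 52750087 to 52763475, minus strand) was at 0.69, 0.59 and 0.79 FPKM in NC and at 2.45, 1.95 and 2.4 in siFSCN1, and rose 2.9-fold, at 1.54 ± 0.19 (adjusted p = 1.2e-06). These 2 genes share 13.4% and 13.3% of their 75-base stretches with each other, so the split of their reads is uncertain in part. GSTA4, which detoxifies the lipid aldehyde hydroxynonenal, was the most abundant of the class, at 5.23 FPKM ± 0.443 (SD, n = 3) in NC and 7.8 ± 0.501 in siFSCN1, and rose less (0.41 ± 0.081, adjusted p = 2.3e-04).

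The promoters of GSTA1 and GSTA2 are shown to let the likeness of their sequences be seen. Whether the sequence bears on the changes was not tested. The stretches run from 200 to 51 bases before the start (RefSeq, GRCh38.p14, chr6:52803867-52804016 and chr6:52763526-52763675, both on the minus strand, 5′ to 3′), and capitals mark the 3 bases at which they differ.
GSTA1: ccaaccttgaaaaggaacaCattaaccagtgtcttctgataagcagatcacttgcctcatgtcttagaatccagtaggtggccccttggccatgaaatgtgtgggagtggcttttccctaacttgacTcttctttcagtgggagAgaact
GSTA2: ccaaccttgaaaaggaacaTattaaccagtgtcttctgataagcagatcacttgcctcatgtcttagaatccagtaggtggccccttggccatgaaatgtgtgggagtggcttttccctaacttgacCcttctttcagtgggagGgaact
Over 300 bases the pair are 96% identical.

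The mu class was divided. GSTM2 had 5, 8 and 5 counts in NC and 23, 30 and 28 in siFSCN1 and was called higher (1.96 ± 0.39, adjusted p = 2.4e-04), and 31.7% of its 75-base stretches are found in other GSTM genes. GSTM2 entered the test through siFSCN1 only, so it had to differ. GSTM3 was at 1.9, 1.65 and 1.96 FPKM in NC and at 1.74, 1.37 and 1.49 in siFSCN1, and fell by 0.43 ± 0.11 on the log2 scale (adjusted p = 0.00297). Its FPKM overlapped between groups, and the fall did not pass with library totals (-0.24, adjusted p = 0.0675) or in limma on log2 FPKM (adjusted p = 0.0741 and 0.0743). GSTM4 was at 3.26, 3.09 and 2.98 FPKM in NC and at 2.75, 2.51 and 2.71 in siFSCN1, and fell by 0.39 ± 0.065 (adjusted p = 3.1e-05). GSTM1, a gene that many people lack in both copies, had at most 3 counts in any library.

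GSTP1 and GSTO1, the 2 members of highest FPKM in NC, both fell. GSTO1 (ENSG00000148834.13, chromosome 10, 104235356 to 104267459, plus strand), an omega-class enzyme that reduces dehydroascorbate and arsenicals, was at 84.77, 80.96 and 80.26 FPKM in NC and at 45.53, 41.85 and 42.72 in siFSCN1. The groups did not overlap, and GSTO1 was called lower, 2.12-fold, at -1.09 ± 0.043 (adjusted p = 2.3e-13). With upper quartile or library-total scaling it was at -0.97 or -0.90, short of 2-fold. GSTP1 (ENSG00000084207.18, chromosome 11, 67583742 to 67586656, plus strand), the pi-class enzyme that is abundant in many lung tumours, was at 460.62, 435.32 and 466.98 FPKM in NC and at 396.89, 372.45 and 332.05 in siFSCN1. GSTP1 fell by 0.47 ± 0.05 on the log2 scale (adjusted p = 1.3e-07). GSTO2, the second omega gene, rose by 0.50 ± 0.15 (adjusted p = 0.00568) at under 1 FPKM, and is named after its values were seen.

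The start regions of GSTO1 and GSTP1 are shown because each holds the antioxidant core TGACNNNGC, in capitals. They run from 250 to 101 bases before the start of GSTO1 (chr10:104254642-104254791, plus strand) and from 100 bases before to 50 after that of GSTP1 (chr11:67583712-67583861, plus strand), from RefSeq, GRCh38.p14, 5′ to 3′.
GSTO1: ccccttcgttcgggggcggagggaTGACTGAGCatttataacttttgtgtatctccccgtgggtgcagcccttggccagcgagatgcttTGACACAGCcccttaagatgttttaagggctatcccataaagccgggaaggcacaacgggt
GSTP1: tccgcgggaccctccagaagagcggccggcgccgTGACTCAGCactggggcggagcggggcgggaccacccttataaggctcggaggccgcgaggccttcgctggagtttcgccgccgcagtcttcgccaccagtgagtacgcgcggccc
GSTO1 holds the core 2 times and GSTP1 1 time. The core was found in 13.3% of all RefSeq windows.

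The microsomal enzymes and the remaining classes changed by less than 2-fold. MGST2, which can make leukotriene C4, was at 12.87, 11.65 and 12.39 FPKM in NC and at 9.99, 8.99 and 8.59 in siFSCN1, and fell by 0.59 ± 0.059 (adjusted p = 7.2e-08). MGST1, a membrane peroxidase, was at 72.31 to 78.02 FPKM in NC and 91.06 to 95.36 in siFSCN1, and rose by 0.14 ± 0.038 (adjusted p = 0.00402). MGST3 did not pass, at 0.011 ± 0.049, but rose with library totals (0.20, adjusted p = 6.5e-04), with upper quartile scaling (0.13, adjusted p = 0.0305) and with the abundance trend removed (0.29, adjusted p = 5.8e-05). GSTK1, the mitochondrial and peroxisomal kappa enzyme, had 23.9 FPKM ± 0.784 (SD, n = 3) in NC and 22.1 ± 1.56 in siFSCN1 and fell by 0.28 ± 0.048 on the log2 scale (adjusted p = 4.6e-05). Its FPKM overlapped between groups, and the fall did not pass with library totals (-0.093, adjusted p = 0.0719), with the abundance trend removed (-0.067, adjusted p = 0.224) or in limma on log2 FPKM (adjusted p = 0.0983 and 0.101). GSTZ1, an enzyme of tyrosine breakdown, was at 1.98, 2 and 2.06 FPKM in NC and at 3.5, 3.12 and 3.25 in siFSCN1, and rose by 0.54 ± 0.053 (adjusted p = 5.2e-08).

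The SULT genes were represented by SULT2B1, which sulfonates cholesterol and pregnenolone. SULT2B1 (ENSG00000088002.12, chromosome 19, 48552172 to 48599425, plus strand) was at 22.45, 19.31 and 21.7 FPKM in NC and at 12.56, 9.53 and 9.93 in siFSCN1. The groups did not overlap, and SULT2B1 was called lower, 2.23-fold, at -1.16 ± 0.079 (adjusted p = 3.3e-10), or -0.97 with library totals. SULT1C2, a fetal and gastric enzyme, was at 0.7, 0.62 and 0.6 FPKM in NC and at 0.99, 1.19 and 1.1 in siFSCN1, and rose by 0.61 ± 0.12 (adjusted p = 1.8e-04). SULT1A1, the main phenol sulfotransferase, was at 0.767 FPKM ± 0.0839 (SD, n = 3) in NC and 0.903 ± 0.0802 in siFSCN1, and did not pass (0.068 ± 0.11, adjusted p = 0.612). It is named after its values were seen. The other 7 SULT genes had at most 8 counts in any library.

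Around the members, 86 partner genes in 6 lists were followed, of which 81 had a row and 72 were tested. The lists were written with earlier results of these data known, so their shares are a description. Of these 28 rose, 29 fell and 15 did not pass, and 6 were called higher and 4 lower. That is 13.9% called, against 16.5% of all genes. The balance rests on the scaling, since 36 rose and 20 fell with library totals and 33 and 20 with upper quartile scaling. Of 8 electron donors tested 1 rose, 4 fell and none was called, but 4 rose and 3 fell under either of those scalings. POR, which supplies electrons to the microsomal CYPs, was at 39.52, 35.73 and 38.43 FPKM in NC and at 40.35, 37.03 and 35.24 in siFSCN1. Its log2 fold change of -0.18 ± 0.047 passed (adjusted p = 0.00247) but was 0.0064 with scaling by library totals, so its direction rests on the scaling.

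Of 13 genes that supply the cofactors of conjugation, 9 fell and 1 rose (5 fell with upper quartile scaling or library totals), and UGDH, PAPSS1 and GSR among the 9 changed sign with library totals (GSR, glutathione reductase, from -0.16 to 0.025). SLC35D1, which carries UDP-glucuronic acid into the endoplasmic reticulum where the UGTs work, was at 1.84, 1.98 and 1.74 FPKM in NC and at 0.77, 0.67 and 0.66 in siFSCN1. It was the gene of this list called changed, at -1.57 ± 0.11 (adjusted p = 5.9e-10). UGDH, which makes UDP-glucuronic acid, had a mean of 101 FPKM in NC and 102 in siFSCN1, with a log2 fold change of -0.16 ± 0.041 that turned to 0.025 with library totals. The sulfate donor is made by PAPSS1 and PAPSS2. PAPSS2 rose from 7.96 to 12.9 FPKM (0.54 ± 0.051, adjusted p = 3.0e-08), whereas PAPSS1 was at 8.5 and 8.44 FPKM, with -0.18 ± 0.059 after scaling and 0.012 with library totals. For glutathione, GCLC and GCLM, the subunits of its rate-limiting enzyme, fell by 0.89 ± 0.046 and 0.59 ± 0.043 on the log2 scale, and both are named after their values were seen.

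All 15 regulators tested passed, 9 higher and 6 lower, against 68.3% of all genes. KEAP1, the inhibitor of NFE2L2 and 1 of the 6, did not pass with upper quartile scaling (-0.075, adjusted p = 0.119) or library totals (-0.0052, adjusted p = 0.92), and is named after its values were seen. Called higher were HNF4A, a liver and gut factor that drives many CYP and UGT genes, and NR1H4, the bile acid receptor. HNF4A was at 2.1, 1.85 and 2.18 FPKM in NC and at 5.29, 4.68 and 4.69 in siFSCN1 (1.09 ± 0.062, adjusted p = 2.9e-11). NR1H4 was at 0.87, 0.82 and 0.67 FPKM in NC and at 2, 1.76 and 1.78 in siFSCN1 (1.07 ± 0.13, adjusted p = 6.7e-07), and at 0.95 without NC replicate 3. NFE2L2, the transcription factor that KEAP1 inhibits, rose by 0.22 ± 0.051 (adjusted p = 9.2e-04), from 12.4 to 16.2 FPKM. Among the partner genes that it is known to switch on, GCLC, GCLM and NQO1 (-0.58 ± 0.036) fell, whereas ABCC2 (0.29 ± 0.04), ABCC3 and EPHX1 (0.60 ± 0.048) rose. No list of its targets was fixed, and these were picked after their values were seen.

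Of 12 export pumps and deconjugating enzymes tested, 10 rose (83.3%, against 35.1% of all genes) and none fell, while ABCC1 (-0.043 ± 0.036) and GGT1 (0.28 ± 0.23) did not pass. This list too was written with earlier results known, and the share of all genes was not matched for level. Called were 2 of them, or 16.7%, near the 16.5% of all genes. ABCC3, which exports glucuronides across the basolateral membrane, was at 15.71, 14.62 and 15.66 FPKM in NC and at 69.79, 69.53 and 70.23 in siFSCN1. It was called higher at 2.02 ± 0.04 (adjusted p = 1.6e-16), the largest rise among the partner genes tested. Among the other conjugating enzymes, NNMT, which methylates nicotinamide, was called higher (1.08 ± 0.046, adjusted p = 5.3e-13), from 23.9 to 56.7 FPKM. PTGES, a relative of the MGST enzymes that makes prostaglandin E2, was called lower (-1.69 ± 0.054, adjusted p = 1.6e-14), from 29.1 to 10.1 FPKM. The partner genes called below 1 FPKM in both groups were FMO5 and DPEP1, higher, and NR1I3, lower, and these 3 are named after their values were seen.

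Promoter windows of 300 bases were found in RefSeq for 63 of the 80 members. The AHR core GCGTG was in 20 of the 63 on either strand (36.5% of all windows) and the antioxidant core TGACNNNGC in 11 (13.3%). No hit of either motif overlapped a hit of the other in these windows. Of the 14 members called changed, CYP1B1, CYP24A1, CYP2D6 and UGT1A10 were not matched to a window. Among the other 10, the antioxidant core was in CYP4V2, GSTO1, UGT2B10 and UGT2B11, and the AHR core in CYP1A1, CYP4V2 and SULT2B1. These are matches of letters in a short window, and no binding was measured here.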

How the data were processed

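The authors deposited raw counts per gene for 30230 genes and FPKM values for 29899 of them. Per the study's methods, reads were trimmed, aligned to GRCh38 with HISAT2 and counted where uniquely mapped, whereas the submitters' processing notes name TopHat2. The counting program and its strand setting are not given in the sources used here. The deposited FPKM values served as levels and the deposited counts were tested.

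Genes were filtered with filterByExpr, scaled by TMM (also for CPM) and tested by quasi-likelihood in edgeR 4.0.16 under R 4.3.3, without covariates. P was adjusted by the Benjamini-Hochberg method over 17076 genes. The tests were checked on simulated data. Positions and 75-base overlaps came from GENCODE v44, in which all 80 members were found, and promoters from RefSeq, aligned globally in pairs. The 75-base stretches were those of the longest protein-coding transcript of each member, sought in all transcripts of other genes.

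Named by rule were FSCN1, members called or at 1 FPKM or more in a group, the most abundant member of each family, partner genes called at 1 FPKM or more, and AHR, NFE2L2, POR, UGDH, PAPSS1 and PAPSS2. The 6 partner lists were electron donors, cofactor supply, regulators, other oxidation and hydrolysis enzymes (5 higher and 5 lower of 14 tested), other conjugating enzymes (2 higher and 5 lower of 10) and export pumps with deconjugation. The members, lists and tests were chosen with earlier results of these data known.

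Alternatives were other scalings (RLE, upper quartile, library totals), DESeq2 1.42.0, filters on low counts that were absent (1 count in all) or stricter (on average 10 counts, and 1 CPM in 3 libraries), a replicate block, omission of each library, limma 3.58.1 on log2 FPKM with a pseudocount of 0.1 or 1, removal of the abundance trend, and glmTreat. No 2 libraries agreed within sampling noise.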

Additional observations from a re-analysis of the deposited data

How the results depend on the processing

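FSCN1 kept its direction and call under each alternative run for it, which leaves out glmTreat (log2 fold change -4.11 to -3.41). The 14 members called changed (10 higher, 4 lower) became 8 (6 and 2) under the stricter filter, by construction since it tested 36 members. They became 3 (3 and 0) with limma on log2(FPKM + 1), where the abundant genes GSTO1 (-0.90) and SULT2B1 (-0.93) lost their calls along with scarce ones, and 9 with glmTreat, 1 of them lower. Members called lower were 2 with library totals and 1 with limma on log2(FPKM + 0.1), and the cause of these changes was not tested. Partner genes called changed went from 10 to 3 with limma on log2(FPKM + 1) and to 4 with glmTreat. Leaving out each library in turn gave 13 to 16 members called. Numbers in the sample titles did not pair the libraries (correlations of deviations -0.0608, 0.0855 and -0.158), and with the replicate block the count of members called stayed at 14 and that of members passing at 34. Over the named members, 478 values kept direction and call, 27 kept direction only, 4 gained a call and 13 turned sign. All 13 belong to members that did not pass. CYP20A1 was at 0.038 with library totals, 0.017 with limma at a pseudocount of 0.1 and 0.0095 at 1. CYP2S1 was at 0.043 with upper quartile scaling, 0.11 with library totals, 0.09 and 0.085 with limma on the smaller and larger pseudocount, and 0.065 with the abundance trend removed. MGST3 was at -0.0068 with RLE scaling and -0.018 with DESeq2, and at -0.049 to 0.059 with a library left out, against 0.20 with library totals, 0.29 with the abundance trend removed and 0.18 and 0.17 in limma, where it passed. The cause was not tested. Apart from leaving out a library, 8 members that passed an adjusted p of 0.05 lost it under some setting (CYP27B1, CYP2U1, CYP3A5, GSTK1, GSTM3, GSTO2, UGT1A7 and UGT1A9) and 6 gained it (CYP26A1, CYP39A1, CYP4F12, CYP7B1, MGST3 and UGT1A6). For members under about 10 counts a library, depth limits what can be shown.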

Other observations

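The table also held 34 genes outside the set that carry the name of a member's family, such as pseudogenes and antisense genes, of which 5 were tested, 3 rose and none fell. CYP4F35P, a pseudogene of the CYP4F family, had 19, 15 and 23 counts in NC and 59, 55 and 35 in siFSCN1 and was called higher (1.21 ± 0.28, adjusted p = 9.3e-04 in edgeR's quasi-likelihood test). CYP4F26P had 76, 81 and 90 counts in NC and 123, 131 and 116 in siFSCN1 and rose by 0.40 ± 0.14 (adjusted p = 0.02), as did the coding genes CYP4F3 and CYP4F11. CYP4F29P overlapped between groups and did not pass (0.30 ± 0.16, adjusted p = 0.119). CYP2D7, which shares sequence with CYP2D6, was called higher at 1.65 ± 0.38 (adjusted p = 8.6e-04), a value near that of CYP2D6. CYP1B1-AS1, which overlaps CYP1B1 on the other strand, was at 0.031 ± 0.35 and did not pass (adjusted p = 0.941).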
